A study of Mus musculus with 653 samples.

Results

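*Ptprc*, *Spi1*, *Mpo*, *Csf1r*, *Itgb2*, *Cd48*, *Cd86* and *Fcgr3*, 8 genes of leukocytes and myeloid cells, were examined in single cells sorted as hepatoblasts from the early mouse liver. A cell was counted as a leukocyte-gene cell when it had more than 10 reads on at least 3 of the 8 genes. By this rule 25 cells (3.83% of all, exact Clopper-Pearson 95% interval 2.49 to 5.60%) were leukocyte-gene cells, and they were divided by their reads of *Mpo* and *Csf1r*.

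Embryos came from Lgr5-EGFP-IRES-creERT2 males kept on C57BL/6 and crossed to MF1 females. The allele makes GFP from the *Lgr5* locus, but heterozygous sires also give embryos without it, and the labels do not give the genotype of the embryos behind the bulk sorts. Livers were taken at E10.5 or E13.5 and sorted as Liv2+ CD31- CD45- cells, either without regard to GFP (bulk) or with GFP (Lgr5-GFP+). Each cell was made into a Smart-seq2 library of its own and had 463347 to 2279700 reads on genes. As the labels do not say which embryo or sort a cell came from, a stage and sort stands as 1 sample here, without tests. Intervals cover counting error only, because cells are not replicates and amplified reads without molecular identifiers are not independent molecules. The cells were made into libraries in 5 pools, which served as batches, although the labels do not tie pools to sorts. The study filtered each sort by its own limit on genes per cell, and the lowest number of genes detected was 3958 and 3148 in pools 1 and 2 and 4970 to 4994 in pools 3, 4 and 5. These 3 pools may therefore be 1 sort and were also left out together.

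In the fetal liver, blood cells develop beside hepatoblasts, and macrophages are among the first leukocytes to settle there. The transcription factor PU.1, encoded by *Spi1*, is needed for the myeloid lineages. Immature granulocytic and monocytic cells store myeloperoxidase, the product of *Mpo*, in their primary granules, whereas macrophages depend on the receptor encoded by *Csf1r*. CD45, the surface phosphatase by which haematopoietic cells were to be kept out of these sorts, is the product of *Ptprc*.

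On GRCm38, *Ptprc* (ENSMUSG00000026395) lies on chromosome 1 from 138062861 to 138175708 on the reverse strand, and *Spi1* (ENSMUSG00000002111) lies on chromosome 2 from 91082390 to 91115756 on the forward strand. *Mpo* (ENSMUSG00000009350) lies on chromosome 11 from 87793581 to 87804413 on the forward strand, and its exons share 512 bases with the antisense gene *Gm11505*. No strand setting is stated for the counting, so reads in that stretch cannot be assigned with certainty. *Itgb2* (ENSMUSG00000000290) lies on chromosome 10 from 77530252 to 77565708, *Cd48* (ENSMUSG00000015355) on chromosome 1 from 171682009 to 171705258 and *Cd86* (ENSMUSG00000022901) on chromosome 16 from 36603869 to 36666081. *Fcgr3* (ENSMUSG00000059498, chromosome 1, 171051174 to 171064935) has the related genes *Fcgr2b* and *Fcgr4* nearby, and its values rest on uniquely aligned reads.

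Since the product of 1 of the 8 genes, PU.1, binds DNA, the promoters of the others were searched for its letters. RefSeq promoters on GRCm38.p6 were matched for *Mpo*, *Ptprc*, *Fcgr3* and *Cd48*, and the 250 bases before each start were read on both strands. *Ptprc* and *Fcgr3* had 2 RefSeq starts each, so 6 windows were read. The RefSeq starts of *Mpo*, *Ptprc* and *Fcgr3* lie downstream of the gene starts in the coordinates above. The *Ptprc* and *Fcgr3* pieces therefore lie within the annotated genes. Positions are counted from the RefSeq start. The pieces that hold a match are shown, with the matched letters in capitals.
*Mpo*, chr11:87793534-87793580, forward strand: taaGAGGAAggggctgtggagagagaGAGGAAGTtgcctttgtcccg
*Ptprc*, chr1:138175446-138175475, reverse strand: tgttttcctttaGAGGAAaattgagacgaa
*Fcgr3*, chr1:171059404-171059433, reverse strand: ggttaagcaagagagtccatttccTTCCTC
*Cd48*, chr1:171681904-171681933, forward strand: aatctcattccaTGTGGTgtgatggtagtg
The letters GAGGAAGT, a form bound by PU.1, occurred in the *Mpo* promoter from base -224 to -217, against 2.44% of 32851 promoters. The shorter GAGGAA, a core of the ETS family that lies within the longer form, occurred in those of *Mpo*, *Ptprc* and *Fcgr3* (on the opposite strand in *Fcgr3*) and in 23.3% of all promoters. It was in 4 of the 6 windows, and the other *Ptprc* window held none. TGTGGT, which RUNX factors bind, occurred in that of *Cd48* and in 14.05% of all, and the C/EBP letters TTGCNNCAA were in none of the 4 and in 1.74% of all. These matches describe letters only.

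Leukocyte-gene cells were found almost entirely at E13.5. They were 1 cell of the E10.5 bulk sort (0.493%, with an interval of 0.0125 to 2.71%) and 0 cells of the E10.5 Lgr5-GFP+ sort, which allows a share of up to 1.42%. The E13.5 bulk sort held 11 (6.92%, with an interval of 3.50 to 12.04%), and the E13.5 Lgr5-GFP+ sort held 13 among its 80 cells (16.3%, with an interval of 8.95 to 26.2%). The intervals of the stages did not overlap within either sort, whereas those of the E13.5 sorts did. The intervals cover only counting error in 1 sample per group. Their separation between stages was lost without pools 3, 4 and 5, which held 21 of the 25 cells. In the other 2 pools the E13.5 bulk share was 1.47% (1 of 68 cells, 0.0372 to 7.92%) and the E13.5 Lgr5-GFP+ share 7.50% (3 of 40 cells, 1.57 to 20.4%), beside 0 of 83 in the E10.5 bulk sort, which allows up to 3.61%, and 0 of 92 in the E10.5 Lgr5-GFP+ sort, which allows up to 3.26%.

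**Figure D1:**
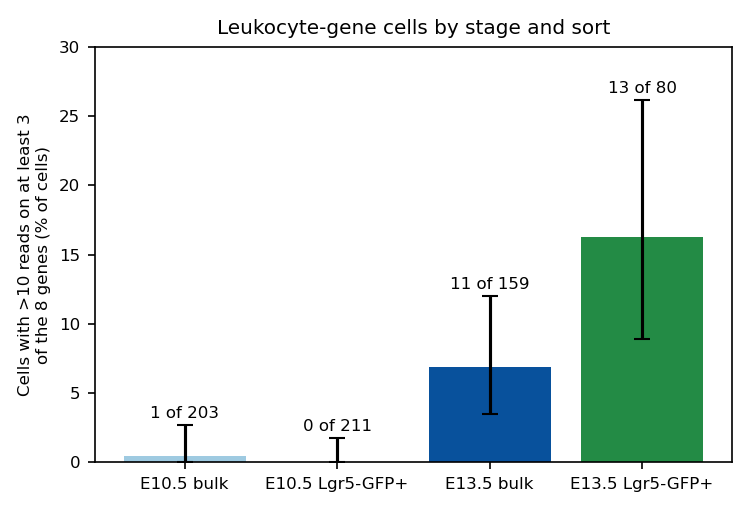
Share of cells (percent) with more than 10 reads on at least 3 of the 8 genes, for each stage and sort. Bars give the share, error bars the exact 95% interval (counting error only), and the numbers the cells. Both E13.5 groups, at 6.92% and 16.3%, stand above both E10.5 groups.

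The pools were uneven. Pools 1 to 5 held 4, 0, 10, 5 and 6 of the 25 cells. Among E13.5 bulk cells the share was 2.94% in pool 1, 15.2% in pool 3, 8.82% in pool 4 and 8.33% in pool 5, with 0 of 34 cells in pool 2. Among E13.5 Lgr5-GFP+ cells it was 23.1%, 26.3%, 7.14% and 57.1% in the same 4 pools, of which pool 5 held only 7 such cells, with 0 of 27 cells in pool 2. The Lgr5-GFP+ share was thus the higher in pools 1, 3 and 5 and the lower in pool 4. Without pool 3, 15 leukocyte-gene cells were left.

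The 8 genes were concentrated in these few cells. Of all cells, 549 had more than 10 reads on none of the genes, 71 on 1, 8 on 2, and 6, 6, 6, 4 and 3 on 3, 4, 5, 6 and 7. No cell passed for all 8. The 25 cells held 99.5% of all reads of *Cd86*, 99.3% of *Ptprc*, 98.8% of *Mpo*, 98.5% of *Fcgr3*, 92.1% of *Spi1* and 87.9% of *Csf1r*, but 70.96% of *Cd48* and 33.8% of *Itgb2*. Since the genes chose the cells, these shares are a description.

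The cells fell into classes that followed the sort. *Mpo* alone passed in 7 cells (1 E10.5 bulk and 6 E13.5 bulk), and *Mpo* and *Csf1r* both passed in 5, all E13.5 bulk. *Csf1r* alone passed in 11 cells and neither gene in 2, all of them E13.5 Lgr5-GFP+. The 12 cells with *Mpo* (*Mpo* cells) were therefore all from the bulk sorts. The other 13, all E13.5 Lgr5-GFP+, had 0 *Mpo* reads each and are called *Mpo*-negative cells. The division held within pools, since in pools 1, 3, 4 and 5 the bulk sort held 1, 5, 4 and 2 *Mpo* cells and no *Mpo*-negative cell, and the Lgr5-GFP+ sort 3, 5, 1 and 4 *Mpo*-negative cells and no *Mpo* cell.

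**Figure D2:**
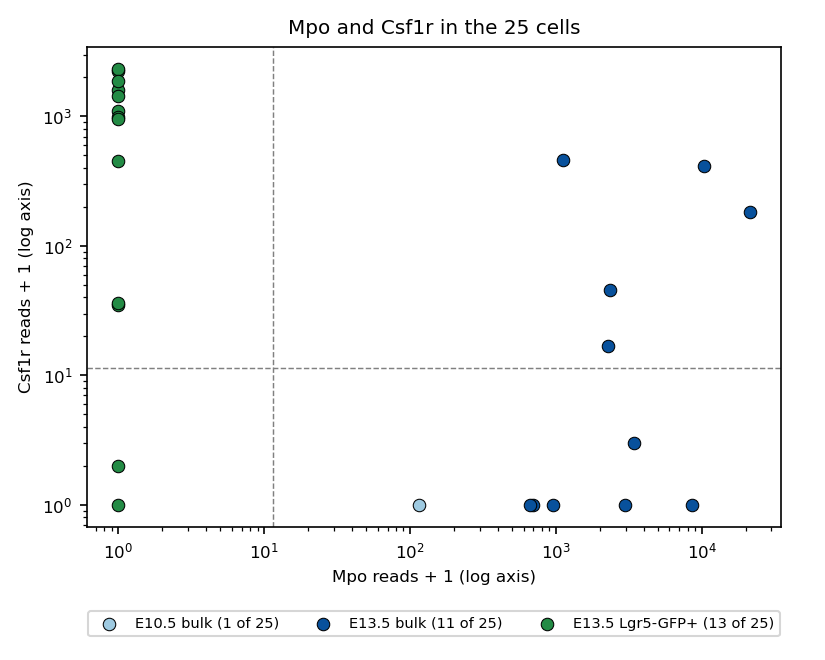
Reads of *Mpo* and *Csf1r* (each plus 1, log axes) in the 25 leukocyte-gene cells, coloured by stage and sort, with dashed lines at the limit of more than 10 reads. The 13 E13.5 Lgr5-GFP+ cells stand on the left edge with 0 *Mpo* reads, and 5 of 12 bulk cells lie above both limits.

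*Mpo* and *Csf1r* were also left out of the rule. With the other 6 genes alone (at least 3 of 6), 21 cells were chosen, which by construction are among the 25. They had to divide by sort as the 25 did, so only their number was open. They comprised 10 *Mpo* cells, all E13.5 bulk, and 11 *Mpo*-negative cells, all E13.5 Lgr5-GFP+. *Mpo* cells had fewer reads (median 914890, 634961 to 1550227) than *Mpo*-negative cells (median 1241320, 835941 to 1564649), so all cells were also thinned to 100000 reads, asking for more than 1 read on a gene. The 4 group shares were then the same, with 25 cells, of which 8 had *Mpo* alone, 4 both genes, 10 *Csf1r* alone and 3 neither.

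The granulocyte marker *Mpo* spanned a wide range. In the 12 *Mpo* cells it ranged from 157.5 to 13750.2 RPM (a gene's reads scaled to 1000000 reads on genes) with a median of 2286 RPM, and its level over the summed cells was 4549 RPM. The highest cell held 38.8% of the class's reads, and without it the level was 3192 RPM. The lowest was the E10.5 cell, with 157.5 RPM of *Mpo* and 99 reads of *Spi1* and 95 of *Itgb2* and none of the other 5 genes. By group, *Mpo* stood at 309 RPM in E13.5 bulk cells (306.7 to 311.9, exact Poisson 95% interval), 2.83 RPM in E10.5 bulk cells, 0.0852 RPM in E13.5 Lgr5-GFP+ cells and 0 reads in E10.5 Lgr5-GFP+ cells. Across pools it ranged from 0 to 1205 RPM in E13.5 bulk cells, so its level there turned on few cells.

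The macrophage receptor *Csf1r* had 0 to 2332 reads in *Mpo*-negative cells (median 987, 11 of 13 cells with more than 10) and 0 to 462 in *Mpo* cells (median 1, 5 of 12). The summed levels were 818 and 93.01 RPM. The gene (ENSMUSG00000024621) lies on chromosome 18 from 61100598 to 61132149 on the forward strand and shares 873 exon bases with *Hmgxb3* on the other strand, where reads cannot be assigned with certainty. Its group levels ran from 142.4 RPM in E13.5 Lgr5-GFP+ cells to 6.43, 3.46 and 2.95 RPM in E13.5 bulk, E10.5 bulk and E10.5 Lgr5-GFP+ cells. The last 3 did not differ beyond the range over their pools, which was 0 to 22.7, 0 to 14.2 and 0.0172 to 5.07 RPM.

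*Spi1* was the gene most widely shared by both classes. It had 99 to 3336 reads in *Mpo* cells (median 945, 12 of 12 with more than 10) and 1 to 4521 in *Mpo*-negative cells (median 1887, 12 of 13). The summed levels were 1203 and 1410.2 RPM, a log2 difference of -0.23, and the cells of the classes overlapped over most of their range. In the 628 other cells *Spi1* stood at 4.19 RPM, with 18 cells over 10 reads.

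*Ptprc*, the gene of the gated antigen, had more than 10 reads in 15 cells, and all were leukocyte-gene cells. In *Mpo* cells it had 0 to 399 reads (median 88.5, 8 of 12 over 10), and in *Mpo*-negative cells 0 to 1822 (median 97, 7 of 13). None of the 628 other cells had more than 10, which allows a share of up to 0.478%. The highest *Mpo*-negative cell held 46.6% of that class's *Ptprc* reads, and without it the level moved from 245 to 142.04 RPM, beside 136.5 RPM in *Mpo* cells. CD45- sorted cells with *Ptprc* reads were therefore present in both sorts at E13.5, whereas *Ptprc* summed to 17 reads over the E10.5 bulk cells and 7 over the E10.5 Lgr5-GFP+ cells. Protein was not measured in these files.

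*Cd86*, a costimulatory ligand of antigen-presenting cells, differed most between the classes apart from *Mpo*. It passed in 11 of 13 *Mpo*-negative cells (0 to 3181 reads, median 785) and in 1 of 12 *Mpo* cells, where that cell alone had 697 reads. No other cell had more than 10. The summed levels were 864 and 57.8 RPM, and the *Mpo* cells had 0 RPM without that cell.

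*Fcgr3*, a low-affinity receptor for IgG, passed in 10 of 13 *Mpo*-negative cells (0 to 1987 reads, median 281) and 6 of 12 *Mpo* cells (0 to 800, median 75), at 613 and 227 RPM. *Cd48*, a SLAM-family adhesion molecule, passed in 7 of 13 and 4 of 12 cells, at 343 and 107.1 RPM, and its highest cells had 1546 and 512 reads. *Itgb2*, the common beta chain of the leukocyte integrins, was the member with the higher level in *Mpo* cells apart from *Mpo* itself. It stood at 165.5 against 74.4 RPM, but 1 *Mpo* cell with 1097 reads gave 54.96% of the reads, and without the top cell of each class the levels were 79.98 and 46.9 RPM. In these 3 genes the cells of the classes overlapped.

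**Figure D3:**
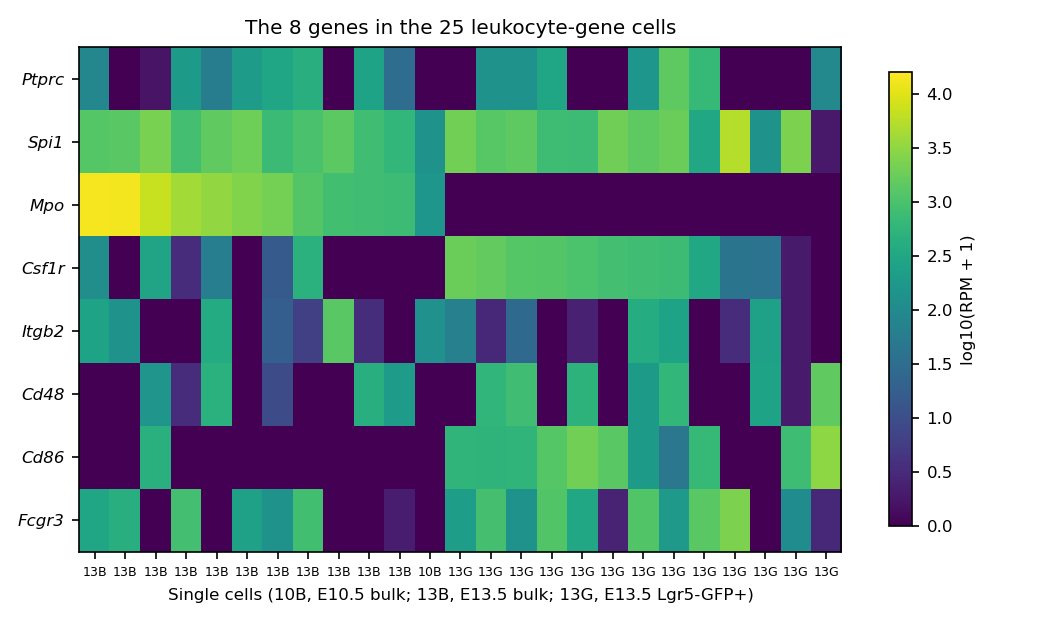
Level of the 8 genes, as log10(RPM + 1), in each of the 25 leukocyte-gene cells. Cells are ordered by class and then by falling *Mpo* or *Csf1r*, with the 12 *Mpo* cells on the left. *Spi1* is present throughout, *Mpo* is at 0 in the 13 cells on the right, and *Cd86* is found in 1 *Mpo* cell.

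Between genes, levels were compared per kilobase of annotated exons. In *Mpo* cells *Mpo* was highest with 1328.5 RPM per kb, followed by *Spi1* (446), *Fcgr3* (130.7), *Cd48* (90.1) and *Itgb2* (54.2), and *Csf1r* (16.1), *Cd86* (15.8) and *Ptprc* (7.45) were lowest. In *Mpo*-negative cells the order was *Spi1* (523), *Fcgr3* (353), *Cd48* (288), *Cd86* (236), *Csf1r* (141.7), *Itgb2* (24.4) and *Ptprc* (13.4 RPM per kb). The exons of all isoforms were merged, so genes with long alternative exons, of which *Ptprc* had 18313 bases in all, are placed too low.

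Between stages the levels summed over a group's cells were compared within each sort, counting a gene as different from 2-fold among genes with a mean of at least 1 RPM. A summed level does not tell more cells from more reads per cell, for which the counts of cells above stand. Over all cells, most reads of each gene but *Itgb2* lay in the same leukocyte-gene cells, which these genes had chosen. The genes had also been picked with earlier results of these data known. The counts of genes here and below are therefore not separate results beside the counts of cells, and the shares of all genes are a scale only. In bulk cells 6 of 8 genes were at least 2-fold higher at E13.5, against 14.1% of 13586 genes, and none was lower, against 35%. *Ptprc* went from 0.0672 to 9.38 RPM, *Spi1* from 3.20 to 94.2, *Mpo* from 2.83 to 309, *Cd48* from 0.190 to 22.5, *Cd86* from 0.0198 to 3.98 and *Fcgr3* from 0.166 to 15.6 RPM. The level of *Cd86* at E13.5 came almost wholly from 1 cell, without which it was 0.0512 RPM. *Csf1r* (3.46 and 6.43 RPM) and *Itgb2* (12.5 and 19.99 RPM) had log2 differences of 0.89 and 0.68. For *Csf1r* 1 cell held 82.4% of the E10.5 bulk reads, and without the top cell of each group the levels were 0.611 and 3.85 RPM, 6.29-fold higher at E13.5. With 1 RPM added to each level, unlike in the log2 differences of single genes, the median log2 difference was 3.56 over the 8 genes. Over all genes it was -0.25.

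In Lgr5-GFP+ cells 7 of the 7 genes above the filter were at least 2-fold higher at E13.5, against 24.2% of 14564 genes. The levels at E10.5 and E13.5 were 0.0269 and 41.7 RPM for *Ptprc*, 0.269 and 241 for *Spi1*, 2.95 and 142.4 for *Csf1r*, 1.72 and 24.3 for *Itgb2*, 0.0846 and 58.5 for *Cd48*, 0.181 and 147.2 for *Cd86* and 0.377 and 104.6 RPM for *Fcgr3*. *Mpo*, with 0 and 8 reads, was below the filter. With 1 RPM added to each level, the median log2 difference was 5.78 over the 7 genes and -0.08 over all genes. Without that addition, the smallest difference was that of *Itgb2* with a log2 value of 3.83.

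Between sorts at E13.5, a comparison added after the data were seen, 6 of 8 genes were at least 2-fold higher in Lgr5-GFP+ than in bulk cells, against 38.2% of 13574 genes, and 1 was lower, against 20.8%. The gene that was lower was *Mpo*, with a log2 difference of -11.83. The log2 differences of the higher genes were 5.21 for *Cd86*, 4.47 for *Csf1r*, 2.75 for *Fcgr3*, 2.15 for *Ptprc*, 1.38 for *Cd48* and 1.36 for *Spi1*, and that of *Itgb2* was 0.28. This comparison shares its samples with the stage comparisons. At E10.5, 4 of the genes passed the filter. Of these, *Spi1*, *Mpo* and *Itgb2* were lower in Lgr5-GFP+ cells and none was higher, against 13.3% and 14.2% of 14284 genes. *Mpo* had 717 reads in bulk cells and 0 in Lgr5-GFP+ cells, a level at least 245.6-fold lower when 3 reads over the group are taken as the floor. A single bulk cell held 63.6% of these reads, without which the level fell from 2.83 to 1.03 RPM and the bound to 89.2-fold. Without the top cell of each group *Spi1* and *Mpo* were below the filter, *Itgb2* was still lower in Lgr5-GFP+ cells (0.834 and 10.3 RPM), and *Csf1r* was 3.21-fold higher there.

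Genes that the rule did not use were then examined in the 25 cells, and the *Mpo*-negative cells bore the markers of macrophages. *C1qb* and *C1qc*, chains of complement C1q, had more than 10 reads in 13 of 13 *Mpo*-negative cells (1830 to 15537 reads with a median of 7012 for *C1qb*, and 1123 to 8166 with a median of 3674 for *C1qc*). In the 12 *Mpo* cells they had at most 3 and 1 reads. *Aif1* and *Cd68* passed in 12 of 13 cells, and *C1qa*, *Adgre1* (F4/80), *Marco*, a scavenger receptor, and *Ctss*, a lysosomal protease, in 11. *Timd4*, a receptor for dying cells on resident macrophages, passed in 10, and *Mrc1* and *Fcgr1* in 9. Every *Mpo*-negative cell had more than 10 reads on at least 3 of the 20 macrophage and monocyte genes other than *Csf1r*, as against 2 of 12 *Mpo* cells and 7 of 549 cells with none of the 8 genes.

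Not all macrophage markers were present. *Vsig4* and *Cd163*, both of mature Kupffer cells, had 0 reads in the 13 cells, and *Clec4f* passed in 4. The monocyte genes *Ccr2* and *Ly6c2* had 0 reads there and passed in 1 and 2 *Mpo* cells. *Spic*, a factor of red pulp macrophages that handle iron, passed in 9 of 13 cells (1482 RPM, up to 10057 reads), and *Nr1h3* and *Maf* passed in 10, whereas *Spic* and *Nr1h3* had 0 reads and *Maf* at most 1 in the *Mpo* cells.

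Over all cells, a few of these markers, picked after their values were seen, were also counted by sort without use of the 8 genes. *Adgre1* passed in 11 and *Timd4* in 10 of 80 E13.5 Lgr5-GFP+ cells (13.8%, 7.07 to 23.3%, and 12.5%, 6.16 to 21.8%), all of them leukocyte-gene cells, and in no cell of the other groups. *C1qb* passed in 23 E13.5 Lgr5-GFP+ cells (28.8%, 19.2 to 39.95%), of which 13 were leukocyte-gene cells, in 1 E10.5 Lgr5-GFP+ cell and in 0 E13.5 bulk cells, which allows a share of up to 1.89%. *Marco* passed in 12 E13.5 Lgr5-GFP+ and 2 E13.5 bulk cells.

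The *Mpo* cells bore some granule genes and not others, and granule genes other than *Mpo* were found in part of them. *Prtn3*, a protease of primary granules, passed in 11 of 12 cells (up to 12011 reads), but the proteases *Elane* and *Ctsg* passed in 4 and 3 cells and *Ms4a3*, a gene of granulocyte and monocyte progenitors, in 2. *S100a8* passed in 4 cells and *S100a9* in 3, with up to 24587 and 11116 reads. *Camp* passed in 2 cells. *Ltf*, *Ngp*, *Lcn2*, *Mmp8* and *Ly6g*, which are made by more mature neutrophils, passed in none and had at most 9 reads in a cell. At least 3 of the 16 granule genes other than *Mpo* passed in 5 of 12 *Mpo* cells, 1 of 13 *Mpo*-negative cells and 24 of 549 cells with none of the 8 genes. *Prtn3* also passed in 51 of the 628 other cells, so it does not mark these cells alone.

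The same cells carried genes of blood progenitors. *Runx1* passed in 12 of 12 *Mpo* cells (median 911 reads, up to 18834), *Kit*, the receptor for stem cell factor, in 9, *Myb* in 8 and *Gata2* in 7, and at least 3 of the 12 progenitor genes passed in 10 of 12. These genes were not particular to them, since at least 3 also passed in 27 of 71 cells with 1 of the 8 genes and 95 of 549 with none, and *Kit* passed in 63 of all E13.5 bulk cells (39.6%, 31.96 to 47.7%). In the *Mpo*-negative cells *Kit* and *Myb* had 0 reads and *Gata2* at most 1, while *Runx1* passed in 7 of 13. *Cpa3* and *Hdc*, genes of mast cells and basophils, passed in 5 *Mpo* cells each, but *Ms4a2* had at most 4 reads and the mast cell and basophil genes *Fcer1a*, *Mcpt8*, *Cma1* and *Tpsb2* are listed at 0 in all cells. *Cd34* passed in 2 *Mpo* cells and *Flt3* in 1.

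Within the *Mpo* cells 2 genes, chosen after their values were seen, were found in different cells. *Elane* passed in 4 cells and *Gata2* in 7, with 0 cells in common and 11 of 12 with either. *Ctsg* and *Ms4a3* also shared no cell with *Gata2*, but these were largely the same cells, as 2 of 3 *Ctsg* cells and 2 of 2 *Ms4a3* cells had *Elane*. *Prtn3* passed in 6 of 7 *Gata2* cells and *Kit* in 6. *Csf1r* passed in 3 of the 4 *Elane* cells and in 1 of the 7 *Gata2* cells. Other pairs also shared no cell, among them *Elane* and *Gata1* (4 and 3 cells) and *Cpa3* and *Cd34* (5 and 2 cells). No division of the *Mpo* cells is therefore read from these counts.

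**Figure D4:**
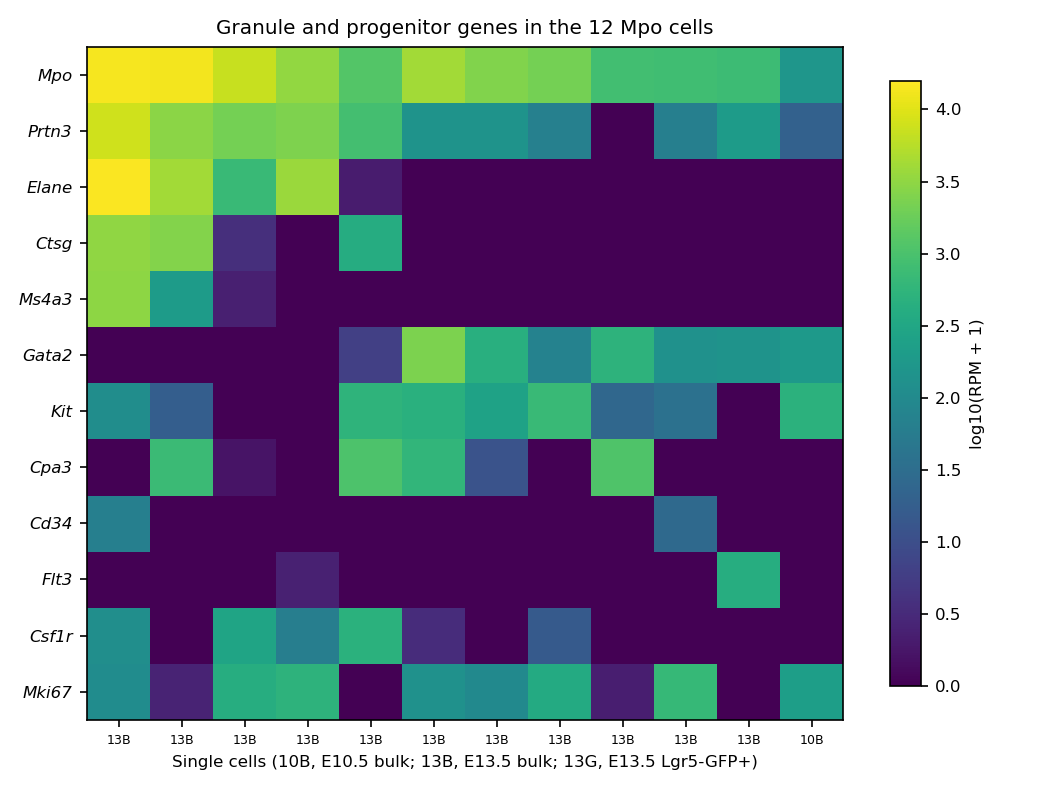
Level of granule genes, progenitor genes, *Csf1r* and the proliferation gene *Mki67*, as log10(RPM + 1), in the 12 *Mpo* cells. Cells with *Elane* stand on the left and cells with *Gata2* on the right, and the E10.5 cell is the last column.

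The 8 genes were set beside genes of their own families. For the 2 classes as a whole, a comparison added after the data were seen, 1 of the 8 genes (*Mpo*) was at least 4-fold higher in *Mpo* cells and 2 (*Csf1r* and *Cd86*) were at least 4-fold lower, against 28.3% and 21.6% of 11432 genes. In *Mpo*-only against *Csf1r*-only cells the same numbers were 1 and 2 of 8, against 26.7% and 25.5% of 10554 genes. Since reads of *Mpo*, and in the second comparison also of *Csf1r*, defined the classes, nothing is read from these counts. The following counts refer to the 12 and 13 cells. Of the macrophage and monocyte genes other than *Csf1r*, 14 of 18 were at least 4-fold higher in *Mpo*-negative cells and 2 in *Mpo* cells, and of the granule genes other than *Mpo*, 10 of 12 were higher in *Mpo* cells and none in *Mpo*-negative cells. For these 10 the top *Mpo* cell held from 43.1% (*S100a9*) to 100% (*Fcnb*) of the class's reads, with 99.8% for *Gfi1* and 97.3% for *Ms4a3*. For the 2 macrophage and monocyte genes, *Ccr2* and *Ly6c2*, it held 100% and 84.5%. Several of these calls thus rested on 1 cell.

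Among Fc receptors and their chains, *Tyrobp* (629 and 2595 RPM in *Mpo* and *Mpo*-negative cells) and *Syk* (105.1 and 429 RPM), which relay signals, and *Fcgr1* and *Fcgrt* were at least 4-fold higher in *Mpo*-negative cells, whereas the inhibitory receptor *Fcgr2b* stood at 114.3 and 25.4 RPM. For *Fcgr2b* 1 *Mpo* cell held 68.1% of the reads, the levels were 41.9 and 13.3 RPM without the top cell of each class, and more *Mpo*-negative than *Mpo* cells passed (5 of 13 and 4 of 12). *Fcer1g*, the common chain, passed in 11 of 12 and 12 of 13 cells at 859 and 2358 RPM. Among integrin partners of *Itgb2*, *Itgal* passed in 4 *Mpo* and 8 *Mpo*-negative cells (57.3 and 187.8 RPM, or 17.2 and 142.99 RPM without the top cell of each class), *Itgax* in 1 *Mpo*-negative cell, and *Itgam* is listed at 0 in all cells.

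Among the signalling partners of CD45, *Ptprcap*, a protein bound to CD45, stood at 359 RPM in *Mpo* cells and had 1 read in the *Mpo*-negative cells. The kinase gene *Lyn* and the phosphatase gene *Ptpn6* were found in both classes, at 305 and 436 RPM and at 207.2 and 302 RPM. Of the B7 and SLAM genes, the *Cd48* receptor gene *Cd244a* passed in 3 *Mpo* cells and 1 *Mpo*-negative cell, *Cd80*, which shares its receptors with *Cd86*, in 2 and 1, and *Cd28* and *Ctla4*, the receptors of *Cd86*, in none.

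Of the growth factor receptors beside *Csf1r*, *Csf2rb* passed in 6 *Mpo* and 9 *Mpo*-negative cells (412 and 322 RPM), and *Csf3r*, the receptor for granulocyte colony-stimulating factor, in 4 and 1. The *Csf1r* ligand *Csf1* had more than 10 reads in 1 cell of each class and 25 of the 628 other cells. Its level of 292 RPM in *Mpo* cells came from 3515 reads in that 1 cell, without which it was 0.456 RPM, beside 4.32 RPM in *Mpo*-negative and 16.6 RPM in other cells. *Il34*, also a ligand, passed in 10 of the other cells only. Genes of the leukocyte cytoskeleton and oxidase were shared. *Rac2* passed in 12 of 12 and 11 of 13 cells, *Cd53* in 10 and 10, *Laptm5* in 10 and 12 and *Lcp1* in 11 and 12, and *Coro1a* (986 and 233 RPM), *Vav1* (408 and 79.3 RPM), *Plek* (296 and 14.1 RPM) and *Ncf1*, which had 0 reads in *Mpo*-negative cells, were at least 4-fold higher in *Mpo* cells. *Ncf1* stood at 29.3 RPM there, and at 12.7 RPM without its top cell.

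Markers of other cell types were summed over their lists. Mesenchymal genes stood at 6.38 RPM in *Mpo* cells and 6.82 RPM in *Mpo*-negative cells, with 0 of 9 genes over 10 reads in any of these cells, against 2497 RPM in the other cells. The labels call all samples liver hepatoblast cells, yet hepatoblast genes stood at 30.4 and 181.9 RPM against 2577 RPM, and *Hnf4a* had at most 1 read. A single *Mpo*-negative cell with 1093 reads of *Afp* and 827 of *Alb* was the only leukocyte-gene cell with at least 3 hepatoblast genes. Lymphoid genes summed to 295 and 38.1 RPM, of which *Nkg7*, in 6 *Mpo* cells, gave 246 RPM, and *Rag1* and *Rag2* are listed at 0 in all cells. Dendritic cell and MHC class II genes summed to 36.5 and 100.3 RPM, and *H2-Aa* and *H2-Eb1* had 0 reads in the 25 cells.

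Erythroid genes moved with the class. They stood at 545 RPM in *Mpo* cells, 3190 RPM in *Mpo*-negative cells and 4394 RPM in the others. The medians over cells gave another order, with 274, 672 and 145.8 RPM, and single cells reached 30349 RPM among *Mpo*-negative cells and 143318 RPM among the others. *Hba-a1*, an adult alpha globin, passed in 13 of 13 *Mpo*-negative cells (43 to 3812 reads) and 5 of 12 *Mpo* cells (1 to 45 reads, median 8.5), and in 26 of the 67 other E13.5 Lgr5-GFP+ cells. The erythroid factor genes *Gata1* and *Klf1* passed in only 1 and 2 *Mpo*-negative cells. *Pf4*, a platelet chemokine gene, passed in 12 of 13 *Mpo*-negative and 4 of 12 *Mpo* cells, while the megakaryocyte genes *Gp1bb*, *Gp6* and *Tubb1* had at most 1 read in any of the 25. Endothelial genes stood at 295, 415 and 282 RPM, but the medians over cells were 125.8, 281 and 0.823 RPM. *Cdh5* passed in 6 *Mpo*-negative cells. The part of these genes in the differences between the classes was not tested.

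**Figure D5:**
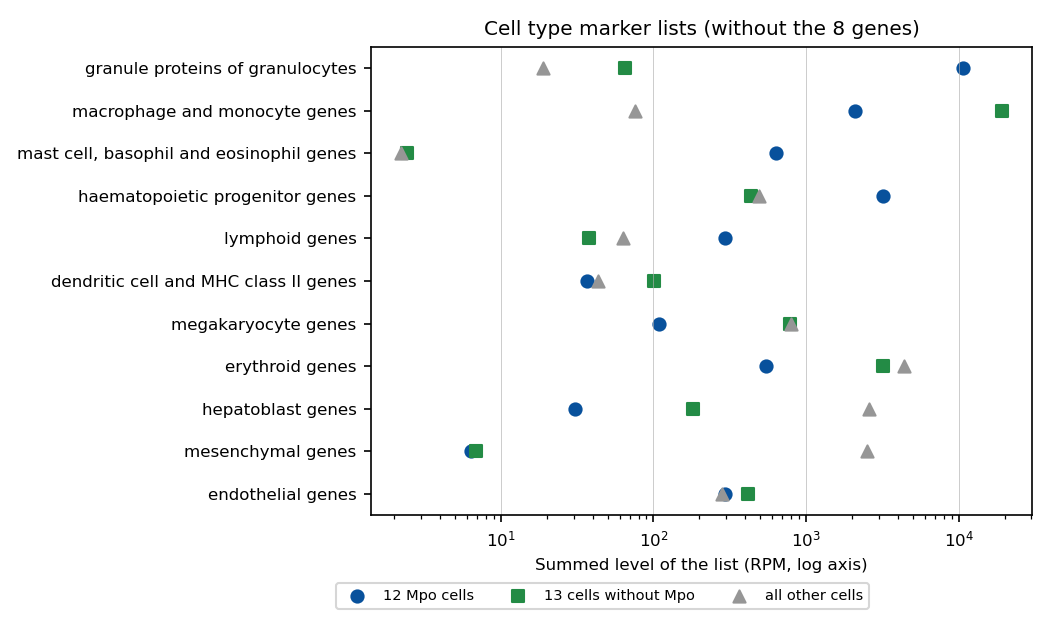
Summed level (RPM, log axis) of 11 marker lists, leaving out *Mpo* and *Csf1r*, in the 12 *Mpo* cells, the 13 cells without *Mpo* and all other cells. Granule genes stand far to the right in *Mpo* cells, macrophage genes in cells without *Mpo*, and mesenchymal and hepatoblast genes in the other cells. At least 3 of the granule genes passed in 5 of the 12 *Mpo* cells, so that sum rests on part of them. At least 3 of the macrophage genes passed in 13 of the 13 cells without *Mpo*.

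*Lgr5* itself was rare in the leukocyte-gene cells. It had more than 10 reads in 1 of 13 *Mpo*-negative cells (313 reads, and 5 cells with any read), although all 13 came from the Lgr5-GFP+ sort, and in 2 of the 67 other E13.5 Lgr5-GFP+ cells (2.99%, 0.364 to 10.4%). In the *Mpo* cells 1 of 12 passed, with 39 reads. The proliferation gene *Mki67* passed in 8 of 12 *Mpo* cells (66.7%, 34.9 to 90.1%), 8 of 13 *Mpo*-negative cells (61.5%, 31.6 to 86.1%) and 371 of 628 other cells (59.1%, 55.1 to 62.95%), and the intervals overlapped. *Top2a*, which is also made in dividing cells, passed in 9 of 12 *Mpo* cells (75%, 42.8 to 94.5%), 5 of 13 *Mpo*-negative cells (38.5%, 13.9 to 68.4%) and 456 of 628 other cells (72.6%, 68.9 to 76.1%), at 402, 170.6 and 567 RPM. The *Mpo*-negative interval lay below that of the other cells, but not below that of the other E13.5 Lgr5-GFP+ cells (34 of 67, 50.7%, 38.2 to 63.2%).

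Outside the 25 cells, some of the 8 genes were found singly. Of the 71 cells with 1 gene over 10 reads, 37 had *Itgb2*, 10 *Spi1*, 10 *Cd48*, 9 *Csf1r*, 3 *Mpo* and 2 *Fcgr3*, and none had *Ptprc* or *Cd86*. At least 3 of 10 erythroid genes other than globins passed in 27 of the 37 *Itgb2* cells, 8 of 10 *Spi1* cells, 10 of 10 *Cd48* cells and 3 of 3 *Mpo* cells, as against 23.5% of the 549 cells with none of the 8 genes. All 8 cells with 2 of the genes also had at least 3 erythroid genes. The 9 *Csf1r* cells differed from these, with none erythroid, and 6 of them were E10.5 Lgr5-GFP+ cells. At least 3 mesenchymal genes passed in 5 of the 9 and at least 3 hepatoblast genes in 2. Of the 549 cells with none of the 8 genes, 240 and 60 did so, and the 2 counts are not read as a trait of the *Csf1r* cells. The 37 single-gene *Itgb2* cells had 11 to 577 reads of that gene (median 68). Just inside and outside the limit of the rule, 6 cells had 3 of the genes and 8 had 2.

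The genes most alike in pattern to each of the 8 were ranked by Pearson's r of log2(RPM + 1) over all cells among 13331 genes. As the cells share few leukocytes among many zeros, these values are a description. *Cd86* came closest to *Aif1* (r = 0.83), *Ifi207* (r = 0.82) and *C1qa* (r = 0.80), *Csf1r* to *Ctss* (0.69), *Fcgr3* and *Ptprc* to *Csf2rb* (0.77 and 0.72), and *Spi1* to *Cd53* (0.76). *Mpo* came closest to *Gm8995* (0.63), *Cd53* (0.61) and *Serpinb1a* (0.60). The lowest top values were those of *Itgb2*, with *Fcer1g* (0.52), and *Cd48*, with *Ccl3* (0.52). *Cd53*, a tetraspanin gene of leukocytes, passed in 20 cells, all of them leukocyte-gene cells, with 10 in each class.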

How the data were processed

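Single-cell Smart-seq2 libraries (Nextera XT) of 653 sorted liver cells were analysed, 203 E10.5 bulk, 211 E10.5 Lgr5-GFP+, 159 E13.5 bulk and 80 E13.5 Lgr5-GFP+. The authors aligned reads with STAR (2.6.0c) to GRCm38.p6 and counted uniquely aligned reads per gene with featureCounts of Subread (1.6.2). The deposited counts are raw and had passed the authors' limits on mitochondrial reads, spike-in reads, depth and genes. No strand setting was given in the sources used here. All columns were used. A deposited normalised score of variable genes, corrected between experiments by the authors, was not used.

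Stage and sort were taken from the labels. RPM were computed from summed counts, with genes compared from 2-fold (groups) or 4-fold (classes) at a mean of at least 1 RPM. Intervals are exact (95%), and a count of 0 was given a limit of 3 counts. Of 54195 genes, 54042 could be named, and 25903 are listed at 0 in every cell, which says only that they are listed so. Coordinates are from GENCODE on GRCm38. Named genes are the 8 genes, the genes of the lists, the 3 genes most alike to each and the 10 leading each class. The members and lists were chosen with earlier results of these data known. Lists, thresholds, thinning, and leaving out pools were the alternatives, and the scripts were tested on simulated data (Python 3.11.15, pandas 2.3.3, numpy 2.4.6, scipy 1.17.1).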

Additional observations from a re-analysis of the deposited data

How the results depend on the processing

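The precision is limited by the small number of leukocyte-gene cells (25) and by 1 sample per group. No paired analysis was possible because no result comes from a test and the labels give no replicate numbers. The shares within pools stand above as values. Limits of more than 5 or 20 reads, of more than 10 RPM, or thinning to 100000 reads each chose the same 25 cells. With any read counted (more than 0), 82 cells were chosen, and the shares were 2.46% in E10.5 bulk, 10.9% in E10.5 Lgr5-GFP+, 19.5% in E13.5 bulk and 28.8% in E13.5 Lgr5-GFP+ cells, with 14 cells of *Mpo* alone, 39 of *Csf1r* alone, 13 of both and 16 of neither. Asking for 2 genes gave 9 cells with neither gene and an E10.5 bulk share of 1.97%, and asking for 4 gave 0 such cells and an E10.5 bulk share of 0%, which was also 0% without *Mpo* and *Csf1r* in the rule. Typed by the gene with more reads, 12 cells were *Mpo* cells.

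Leaving out 1 pool at a time gave 15 to 25 cells in all, 4 to 7 with *Mpo* alone (4 without pool 3 or pool 4), 7 to 11 with *Csf1r* alone (7 without pool 3 or 5), 3 to 5 with both (3 without pool 3 or 5) and 1 to 2 with neither (1 without pool 1 or 3). The E10.5 bulk share was 0 to 0.621% (0% without pool 4), the E13.5 bulk share 4.76 to 8.80% and the E13.5 Lgr5-GFP+ share 12.3 to 24.5%. Of the genes, 5 to 7 were higher at E13.5 in bulk cells, 7 in Lgr5-GFP+ cells, and 4 to 6 between the E13.5 sorts. Without pools 3, 4 and 5 together, 4 cells remained (1 with *Mpo* alone, 2 with *Csf1r* alone, 0 with both and 1 with neither), the shares were 0%, 1.47% and 7.50% in E10.5 bulk, E13.5 bulk and E13.5 Lgr5-GFP+ cells, and 1 gene (*Csf1r*) was at least 2-fold lower at E13.5 in bulk cells. The causes were not tested. Leaving out the cell with the most reads of each gene, chosen after seeing the data, left the counts of genes as they were between stages and between the E13.5 sorts, but in bulk cells between stages *Cd86* was no longer counted and *Csf1r* was.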

Other observations

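The genes leading each class were listed among those with more than 10 reads in at least 50% of its cells. Beside *Mpo*, those highest in the 7 *Mpo*-only over the 11 *Csf1r*-only cells included *Slc24a3* (977 and 0.0718 RPM), *Def6* (657 and 0 RPM), *S1pr1* (656 and 0.144 RPM), the receptor for sphingosine-1-phosphate, and *Ramp1* (567 and 0 RPM). *Def6* had more than 10 reads in 9 of the 12 *Mpo* cells and none of the 13 *Mpo*-negative cells. *Mctp1* had more than 10 in 11 of the 12.

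Beside the C1q genes, *Spic*, *Ctss* and *Aif1*, those highest in *Csf1r*-only cells were *Cfp* (2063 and 0.479 RPM), which encodes properdin of the complement pathway, *Lgmn* (1922 and 0.479 RPM), a lysosomal protease gene, *Cd5l* (939 and 0 RPM), a secreted protein gene of tissue macrophages, and the chemokine gene *Cxcl2* (924 and 0 RPM). *Lgmn* had more than 10 reads in 13 of the 13 *Mpo*-negative cells, *Cfp* in 12, *Cd5l* in 10 and *Cxcl2* in 7. *Ccl24*, also a chemokine gene, was among the genes most alike to *Fcgr3* (r = 0.72 over all cells), with more than 10 reads in 11 cells, all *Mpo*-negative. Genes were ranked by their level in these cells, so the values are a description.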
